A study of Bos taurus with 16 samples.

Results

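The 8 genes PNRC2, CNOT7, PPP1R15B, MCL1, MAPK6, CAMK2G, RHOB and TMED5 are regulators of messenger RNA turnover, translation, cell survival, signalling and secretion. They were chosen by the measured kidney ratios of amplified RNA: 1 cDNA clone of each gene fell across rounds 1, 2 and 3 of amplification. All clones annotated to the 8 symbols were then taken. They make up 11 of the 8448 features on the array, printed as 22 of its 16896 spots. The falling clones number 8, and 3 genes (PNRC2, PPP1R15B and CAMK2G) had 1 further clone each. The 11 clones were all among the 5537 features tested.

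RNA from the kidney of cattle (Bos taurus) was hybridised to a custom 2-colour array of spotted cDNA clones. The groups were unamplified total RNA (round 0) and linearly amplified RNA (rounds 1, 2 and 3), with replicates 1 and K in each of the 4 rounds. Each of the 8 RNAs was hybridised on 2 arrays of opposite dye, which gave 16 arrays. On all of them the other channel held 1 reference RNA that had itself been amplified for 2 rounds, per the labels. What the reference RNA was made from is not given in the sources used here, nor is the strain, sex or age of the animals. Whether replicates 1 and K came from separate animals, dissections or amplifications is not labelled, so that a p-value covers no more than the spread among the 8 RNAs, which may be technical.

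Values below are log2 ratios, kidney over reference, averaged over duplicate spots and over the dye swap. The median of the features with a listed gene was set to 0 on each array, so that a ratio of 0 is the ratio of the median feature. Cy5 was taken to stand over Cy3 in the deposited ratios. This direction is likely rather than stated: its basis is that kidney marker genes then lay above the reference in both dye orientations. With the direction turned, every sign below would be turned. On that direction, 14 of 16 features of kidney markers passed limma's test above the reference at round 0 (adjusted p under 0.05). Of all tested features, 19.6% did. The marker counts were 13 at round 1, 12 at round 2 and 12 at round 3, and 1 marker feature passed below the reference at round 2. Their median ratios were 3.05, 2.79, 3.08 and 2.79 at rounds 0, 1, 2 and 3. The 16 features stand for 10 of the 32 kidney genes listed. No feature of the blood markers was tested. Between 14182 and 16057 spots on an array had a ratio.

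Linear amplification copies the messenger RNA of a sample into cDNA and transcribes it back into many RNA copies, and a later round starts from the RNA made by the one before. The question of the series, as far as its labels give it, is how RNA amplified for a given number of rounds compares with unamplified RNA. The 8 genes act at several steps of gene expression and cell behaviour. PNRC2 and CNOT7 belong to the machinery that destroys messenger RNA. PPP1R15B restores translation by reversing the phosphorylation of the initiation factor eIF2alpha. MCL1 keeps cells alive as a member of the BCL2 family, MAPK6 and CAMK2G are protein kinases, RHOB is a small GTPase, and TMED5 works in early secretion. A spotted clone reports 1 stretch of a transcript, so that different clones of a gene can report different stretches.

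Unamplified RNA is the part of the data that the choice of clones did not use, and there the 8 falling clones differed from each other. Of them, 4 lay above the reference, 1 lay below it and 3 did not pass the test. TMED5, PNRC2, RHOB and CNOT7 were above, with mean ratios between 0.56 and 1.49, and CAMK2G was below at -0.71. Among all 5537 features, 38.7% passed the same test at round 0, of which 19.6% of features lay above and 19% below. The median ratio of the 8 clones at round 0 was 0.50, against -0.02 over all features. The test was limma's moderated test, with Benjamini-Hochberg adjustment over all features tested. Its spread was pooled over all 4 rounds, among them rounds 1 to 3, which chose the clones. The test is therefore not independent of the choice, although the choice did not use the round 0 ratios. At rounds 1, 2 and 3 the clones' median replicate gap was 0.30, 0.23 and 0.28, against 0.37, 0.33 and 0.33 over all features. The reference had been amplified for 2 rounds and this RNA had not, so that tissue and amplification cannot be told apart in these ratios. In tissue RNA, fewer cells that express a gene and less RNA per cell cannot be told apart either. Without replicate 1 of round 0 none of the 8 clones passed, and without replicate K 2 passed (RHOB and CAMK2G). The split also rests on centring: without it 6 passed, all above the reference, with MAPK6 (1.12) and MCL1 (1.06) added and CAMK2G at -0.03.

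Across rounds 1 to 3, the values used to choose them, the 8 falling clones had mean ratios above the reference at round 1 and lower ones at each later round. The median over the 8 clones was 1.94 at round 1, 0.56 at round 2 and -0.71 at round 3. Their median difference of round 3 minus round 1 was -2.93, against 0.06 over all features, and the 8 differences ran from -3.65 to -1.83. These numbers describe the choice and carry no test. At round 3 minus round 1, 16 features were called by limma in all, 0.289% of those tested. All 16 were lower at round 3, and 8 of them are the falling clones, so nothing is read from that overlap. The calls of the contrast rest on every RNA: 0 were left without replicate 1 or K of round 0, replicate K of round 1, replicate 1 or K of round 2, or replicate K of round 3, 1 was left without replicate 1 of round 1, and 3 without replicate 1 of round 3.

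**Figure D1:**
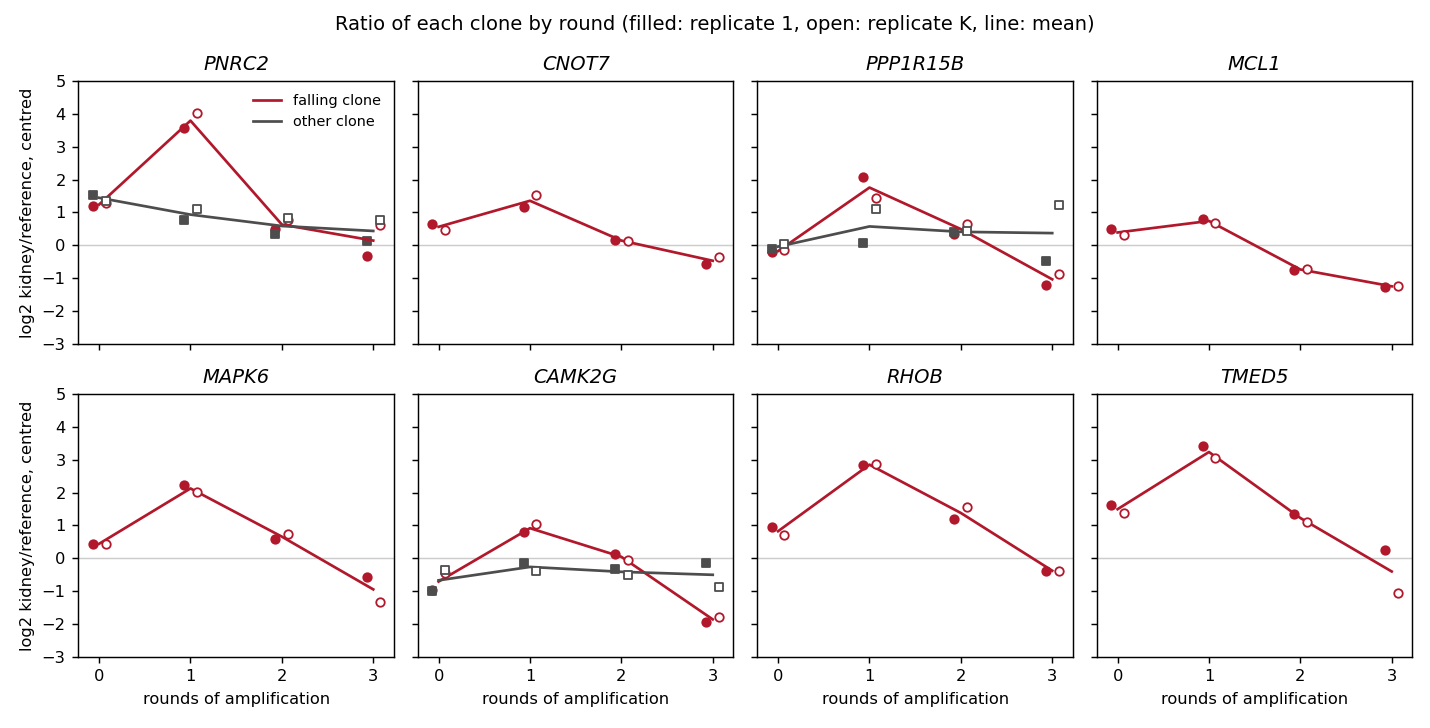
Log2 ratio of kidney over reference (vertical axis, centred on each array) against the number of amplification rounds (horizontal axis) for the 8 genes. Filled symbols are replicate 1, open symbols replicate K, and lines join the means of n = 2; red circles are the falling clones and grey squares the other clones. The falling clones peak at round 1 and are lowest at round 3, while the other clones of PNRC2, PPP1R15B and CAMK2G stay within a range of -0.99 to 1.53.

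PNRC2 is an adapter protein that links the decapping enzyme complex to UPF1, the helicase of nonsense-mediated decay. Its falling clone (feature 3019, NCBI gene 767836) had log2 ratios of 1.18 and 1.30 at round 0, 3.57 and 4.02 at round 1, 0.49 and 0.77 at round 2, and -0.34 and 0.63 at round 3, in replicates 1 and K in that order. Both round 1 values stood far above all others, and the replicates of round 3 overlapped those of round 2. Round 3 minus round 1 came to -3.65 ± 0.36 (SE), a 12.6-fold lower ratio and the second lowest of the 5537 features. Round 3 of replicate K rests on the Cy3 array, whose duplicate spots read 2.01 and -0.76, because both spots of the Cy5 array lacked a ratio. In unamplified RNA the clone was above the reference by 1.24 (limma, adjusted p = 0.0108).

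The other PNRC2 clone (feature 285) read 1.53 and 1.36 at round 0, 0.77 and 1.10 at round 1, 0.35 and 0.82 at round 2, and 0.12 and 0.75 at round 3. It had no peak at round 1, and its mean was highest in unamplified RNA. At round 0 the clones of the gene were close: 1.24 ± 0.08 for the falling clone and 1.44 ± 0.12 for the other (SD, n = 2 each), the second also above the reference (limma, adjusted p = 0.00343). At round 1 they stood apart, at 3.79 ± 0.32 for the falling clone and 0.93 ± 0.24 for the other. The other clone's difference of round 3 minus round 1 was -0.50 (95% interval -1.23 to 0.24, limma adjusted p = 0.391). Its mean was also lower at each later round, but the replicates of rounds 1 and 2 overlapped, as did those of rounds 2 and 3.

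CNOT7 is a catalytic deadenylase of the CCR4-NOT complex, which shortens poly(A) tails. Its single clone (feature 1409, NCBI gene 508055) read 0.64 and 0.48 at round 0, 1.18 and 1.53 at round 1, 0.16 and 0.12 at round 2, and -0.58 and -0.37 at round 3. No 2 rounds overlapped, in the order round 1, round 0, round 2 and round 3 from high to low. Its difference of round 3 minus round 1, -1.83 ± 0.22 (SE), was the smallest of the 8, and 117 of the 5537 features lay below it. All 32 spot values of the clone were measured. In unamplified RNA it was above the reference by 0.56 (limma, adjusted p = 0.0309). The call was lost in Cy5 (0.49, limma, adjusted p = 0.0732) and in Cy3 (0.63, adjusted p = 0.0756). It was also lost from first spots (0.55, adjusted p = 0.0787) and from second spots (0.56, adjusted p = 0.0816). The ratio was 0.48 without replicate 1 of round 0 and 0.64 without replicate K.

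PPP1R15B, also called CReP, is the constitutively made subunit that directs protein phosphatase 1 to eIF2alpha. Its falling clone (feature 85, NCBI gene 538754) read -0.20 and -0.16 at round 0, 2.06 and 1.45 at round 1, 0.34 and 0.64 at round 2, and -1.21 and -0.86 at round 3. The rounds did not overlap, and unamplified RNA stood between rounds 2 and 3. Its difference of round 3 minus round 1 was -2.79 ± 0.28 (SE). The round 0 mean of -0.18 did not pass the test against the reference (limma, adjusted p = 0.521).

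The dyes disagreed more for this PPP1R15B clone than the averages show. With kidney in Cy5 its mean ratios were -0.15, 1.29, -0.60 and -2.87 at rounds 0, 1, 2 and 3, and with kidney in Cy3 they were -0.21, 2.22, 1.58 and 0.79. At round 3 the arrays of replicate 1 read -3.99 in Cy5 and 1.56 in Cy3, a Cy5 minus Cy3 gap of -5.55. Both dyes had their highest value at round 1 and fell after it, but round 3 was below round 0 by 2.72 in Cy5 and above it by 1.00 in Cy3. Of the 8 spot values at round 3, 3 lacked a ratio. The -3.99 is therefore 1 spot, which read 1.02 in Cy3 of the same replicate. Both arrays of replicate K rest on the duplicate of that spot alone, so that the Cy5 mean of -2.87 joins different spots.

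The other PPP1R15B clone (feature 4099) read -0.13 and 0.04 at round 0, 0.06 and 1.09 at round 1, 0.40 and 0.42 at round 2, and -0.47 and 1.21 at round 3. Rounds 1, 2 and 3 overlapped each other, and both round 0 values lay just below those of round 1. Its difference of round 3 minus round 1 was -0.20 (95% interval -1.61 to 1.20, limma adjusted p = 0.871), and the sign was above 0 in 8 of 20 other settings. The dyes disagreed in amplified RNA, and so did duplicate spots. At round 1 the mean was -1.66 in Cy5 and 2.81 in Cy3, and the Cy5 minus Cy3 gap of replicate 1 was -6.62. That gap sets 1 spot in Cy5 (-3.25) against its duplicate in Cy3 (3.37), so that dye and spot cannot be told apart in it. In replicate K the duplicate spots read 1.89 and -2.04 in Cy5, and 3.37 and 1.14 in Cy3, in the same order. Of the clone's 24 spot values in rounds 1 to 3, 4 lacked a ratio. At round 0 its dyes differed by at most 0.06.

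MCL1 is a short-lived BCL2 family protein that blocks mitochondrial cell death. Its single clone (feature 5725, NCBI gene 788087) read 0.48 and 0.30 at round 0, 0.81 and 0.67 at round 1, -0.75 and -0.73 at round 2, and -1.26 and -1.24 at round 3. It had the smallest difference of round 1 from round 0 among the 8 clones and close replicates in the later rounds. From round 1 the clone was different by -1.48 at round 2 and by -1.99 ± 0.19 (SE) at round 3, on the log2 scale. Its round 0 mean of 0.39 did not pass the test (limma, adjusted p = 0.0637).

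MAPK6, also called ERK3, is an atypical MAP kinase. Its single clone (feature 2666, NCBI gene 538094) read 0.43 and 0.45 at round 0, 2.23 and 2.02 at round 1, 0.58 and 0.74 at round 2, and -0.57 and -1.33 at round 3. The rounds did not overlap, and round 0 lay just below round 2. The difference of round 3 minus round 1 was -3.07 ± 0.29 (SE), an 8.42-fold lower ratio. Part of it rests on 1 spot, which read -5.47 on the Cy5 array of replicate K at round 3 while its duplicate on the same array read 0.50. From the first spot of each pair alone the difference was -2.10. The round 0 mean of 0.44 did not pass the test (limma, adjusted p = 0.134).

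CAMK2G encodes the gamma subunit of calcium/calmodulin-dependent protein kinase II. Its falling clone (feature 2315, NCBI gene 282162) read -0.98 and -0.44 at round 0, 0.79 and 1.04 at round 1, 0.14 and -0.05 at round 2, and -1.93 and -1.79 at round 3. It was the lowest of the 8 clones in both replicates of round 0 and of round 3. The round 3 minus round 1 value was -2.78 ± 0.26 (SE). In unamplified RNA it was below the reference by 0.71 on the log2 scale (-0.71, limma, adjusted p = 0.0233). The call was lost without centring, where the ratio was -0.03 (adjusted p = 0.954), in the fit of 16 arrays with a dye term (adjusted p = 0.0762), from first spots (-0.53, adjusted p = 0.319), without replicate 1 of round 0 (-0.44, adjusted p = 0.243) and without the Cy3 array of round 1, replicate 1 (adjusted p = 0.0548).

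The CAMK2G falling clone also has the thinnest data. Of its 24 spot values in rounds 1 to 3, 7 lacked a ratio, against 0 of 8 at round 0. At round 2 replicate 1 rests on the Cy3 array alone, whose duplicate spots read -1.50 and 1.79. At round 3 it rests on 1 spot of the Cy5 array. Of the 17 values that remained, 10 equalled the log2 of a ratio of 2 whole numbers up to 12, against 0 of 8 at round 0; a deposited value of 0, for example, is the log2 of equal channels. Over all listed features, 13.1%, 11.2% and 14.8% of measured values at rounds 1, 2 and 3 were of this kind, and 5.86% at round 0. The part of such values in the fall was not tested for this clone, since too few values remained without them.

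The other CAMK2G clone (feature 7584) read -0.99 and -0.35 at round 0, -0.15 and -0.38 at round 1, -0.33 and -0.50 at round 2, and -0.14 and -0.87 at round 3. It stayed below the reference in all 8 RNAs, and neighbouring rounds overlapped. At round 0 the clones were close, at -0.71 ± 0.38 for the falling clone and -0.67 ± 0.45 for the other (SD, n = 2 each); the second did not pass the test (limma, adjusted p = 0.0659). The other clone's difference of round 3 minus round 1 was -0.24 (95% interval -1.05 to 0.57, limma adjusted p = 0.718). Its dyes differed by at most 0.75 in any RNA.

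RHOB is a small GTPase of endosomes and the plasma membrane. Its single clone (feature 8389, NCBI gene 515118) read 0.95 and 0.70 at round 0, 2.83 and 2.87 at round 1, 1.19 and 1.57 at round 2, and -0.38 and -0.38 at round 3. The replicates of rounds 1 and 3 were close to each other, and no rounds overlapped. The difference of round 3 minus round 1 was -3.23 ± 0.22 (SE), a 9.37-fold lower ratio. The Cy5 means of 0.99, 3.67, 1.73 and -0.13 ran above the Cy3 means of 0.66, 2.03, 1.02 and -0.63 at rounds 0, 1, 2 and 3. In unamplified RNA RHOB was above the reference by 0.82 (limma, adjusted p = 0.00848). On the Cy3 array of round 1, replicate 1, 1 of its spots holds the number 367, outside the range of a log2 ratio, and was treated as missing.

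TMED5 is a p24 family protein, which helps load cargo into vesicles leaving the endoplasmic reticulum. Its single clone (feature 817, NCBI gene 534351) read 1.61 and 1.38 at round 0, 3.40 and 3.07 at round 1, 1.36 and 1.10 at round 2, and 0.25 and -1.05 at round 3. Rounds 0 and 2 were next to each other without overlap, and round 3 had the widest gap between replicates. Between rounds 3 and 1 the difference was -3.64 ± 0.43 (SE), a 12.5-fold lower ratio. At round 3 the Cy5 array of replicate K gave -2.32 and the other 3 arrays between 0.18 and 0.32. In unamplified RNA TMED5 had the highest ratio of the 8 clones, 1.49 (limma, adjusted p = 0.0104).

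Averaged over the dyes, the 8 falling clones were higher at round 1 than in unamplified RNA, CNOT7 and MCL1 only after centring. At round 3 they were lower. In Cy3 alone, the difference of round 1 minus round 0 was -0.12 for MCL1, and that of round 3 minus round 0 was 1.00 for PPP1R15B. For all 8 clones both replicates of round 1 lay above both of round 0, as did 29.8% of all features, and both replicates of round 3 lay below both of round 0, as did 33.1%. The differences of round 1 minus round 0 were 2.55 for PNRC2, 2.03 for RHOB, 1.93 for PPP1R15B, 1.74 for TMED5, 1.69 for MAPK6, 1.63 for CAMK2G, 0.79 for CNOT7 and 0.35 for MCL1. Those of round 3 minus round 0 ran from -1.90 in TMED5 to -0.86 in PPP1R15B. Both contrasts share the RNAs of rounds 1 and 3 with the choice of clones and are given without a test. At round 2 the clones were on both sides of unamplified RNA: PPP1R15B, CAMK2G, MAPK6 and RHOB were above round 0 by 0.22 to 0.75, and PNRC2, CNOT7, MCL1 and TMED5 differed from it by -1.13 to -0.27. These signs depend on the dye: RHOB alone was higher in both dyes, PNRC2, CNOT7 and MCL1 were lower in both, and the other 4 had opposite signs in Cy5 and Cy3 (PPP1R15B -0.45 and 1.79, CAMK2G -0.21 and 1.20, MAPK6 -0.07 and 0.50, TMED5 -1.01 and 0.47).

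A rise at round 1, a fall at each later step and a round 3 below round 0, with no overlap of replicates at any step, was met by 7 of the 8 falling clones. PNRC2 missed it through the overlap of rounds 2 and 3. Of all 5537 features 68, or 1.23%, had this course, and 219, or 3.96%, fell at each step from round 1 with no overlap. The looser pattern of a mean that was lower at round 2 than 1 and at round 3 than 2 was held by all 3 other clones too, and by 22.5% of all features. Nothing is read from these shares for the falling clones, whose fall was the reason for their choice.

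The rise at round 1 depends on the scale. Before centring, the median feature was lower at round 1 than at round 0 by 1.04 on the log2 scale (-1.04) and higher at round 3 than at round 1 by 0.71. Relative to the reference alone, without centring, the round 1 minus round 0 difference was -0.22 for CNOT7 and -0.66 for MCL1, and the other 6 stayed above 0. The difference of round 3 minus round 1 was below 0 for all 8 clones with and without centring. Without centring, CAMK2G was higher at round 2 than at round 1 by 0.36.

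Of the 3 other clones, none was called at round 3 minus round 1, where 0.289% of all features were. None had an unadjusted p under 0.05, as 21.2% of all features did, and 0 were called in the fit of all 16 arrays with a dye term, which called 9.5% of all features. The intervals of the PNRC2 and CAMK2G clones end at -1.23 and -1.05, above the falls of -3.65 and -2.78 in the falling clones of the same genes. That of the PPP1R15B clone ends at -1.61, above -2.79. For PPP1R15B this gap was not seen in every setting: in Cy3 the falling clone had -1.43 and the other clone -1.44, and from first spots the falling clone had -1.17. Because the falling clones were picked for their size, the gap between clones of a gene is a description. Between neighbouring amplified rounds 0 of the 3 were called, as were 0% of all features at round 2 minus round 1 and 0% at round 3 minus round 2; 0 of the 3 and 10.3% and 7.24% of all features had an unadjusted p under 0.05 there. Against round 0, 0 of the 3 were called at round 1, 2 or 3, where 13.3%, 11.2% and 11.6% of all features were; 1 of the 3, the PNRC2 clone, had an unadjusted p under 0.05 at rounds 2 and 3 and none had at round 1, against 30.9%, 31.6% and 31.8% of all features at rounds 2, 3 and 1. At round 3 minus round 0 the other PNRC2 clone had the lowest value, -1.01 (limma, adjusted p = 0.08), with no overlap of replicates. Its round 3 replicates also lay below both of round 1, as did those of 23.1% of all features.

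**Figure D2:**
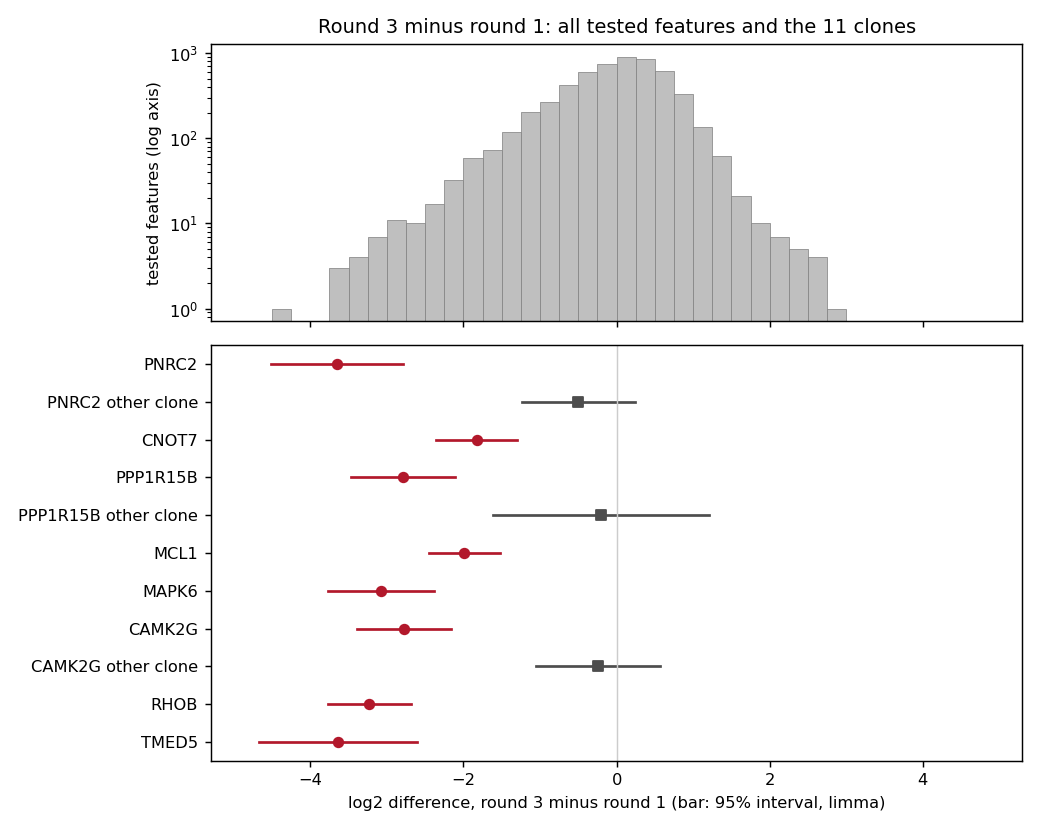
Top, the number of tested features (log axis) by their log2 difference of round 3 minus round 1 in bins of equal width. Bottom, the same difference for the 8 falling clones (red circles) and the 3 other clones (grey squares) with limma's 95% intervals; the falling clones lie between -3.65 and -1.83, where they were picked, and the intervals of the other clones include 0.

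Both dyes showed the fall in their means, which again come from the rounds used for the choice. With the kidney channel taken from Cy5 arrays or from Cy3 arrays alone, the means of all 8 falling clones were lower at round 2 than 1, at round 3 than 2 and at round 3 than 1. Some of these means rest on 1 array: PNRC2 in Cy5 at round 3, and CAMK2G in Cy5 at round 2 and in Cy3 at round 3. In replicate 1 the Cy3 ratio of CAMK2G was -0.16 at round 1 and 0.14 at round 2, with none at round 3. The size differed: the fall between rounds 1 and 3 was larger in Cy5 for 8 of 8 clones, with medians of -3.80 in Cy5 and -2.13 in Cy3. For PNRC2 the values were -5.12 and -3.05, for TMED5 -4.08 and -3.19, for CNOT7 -2.09 and -1.57, and for MCL1 -2.38 and -1.60. Between rounds 0 and 1 all but MCL1 were higher at round 1 in both dyes; MCL1 was higher by 0.82 in Cy5 and had a difference of -0.12 in Cy3. A dye was measured on 1 array per RNA, so that the dye and the array cannot be told apart within an RNA. At round 3 the duplicate spots correlated at 0.56 and 0.59 on the Cy5 arrays of replicates 1 and K, and at 0.78 and 0.67 on the Cy3 arrays. The part of this in the larger Cy5 falls was not tested. How the dyes compared over all features is not given here, so the difference is not read as particular to these clones.

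**Figure D3:**
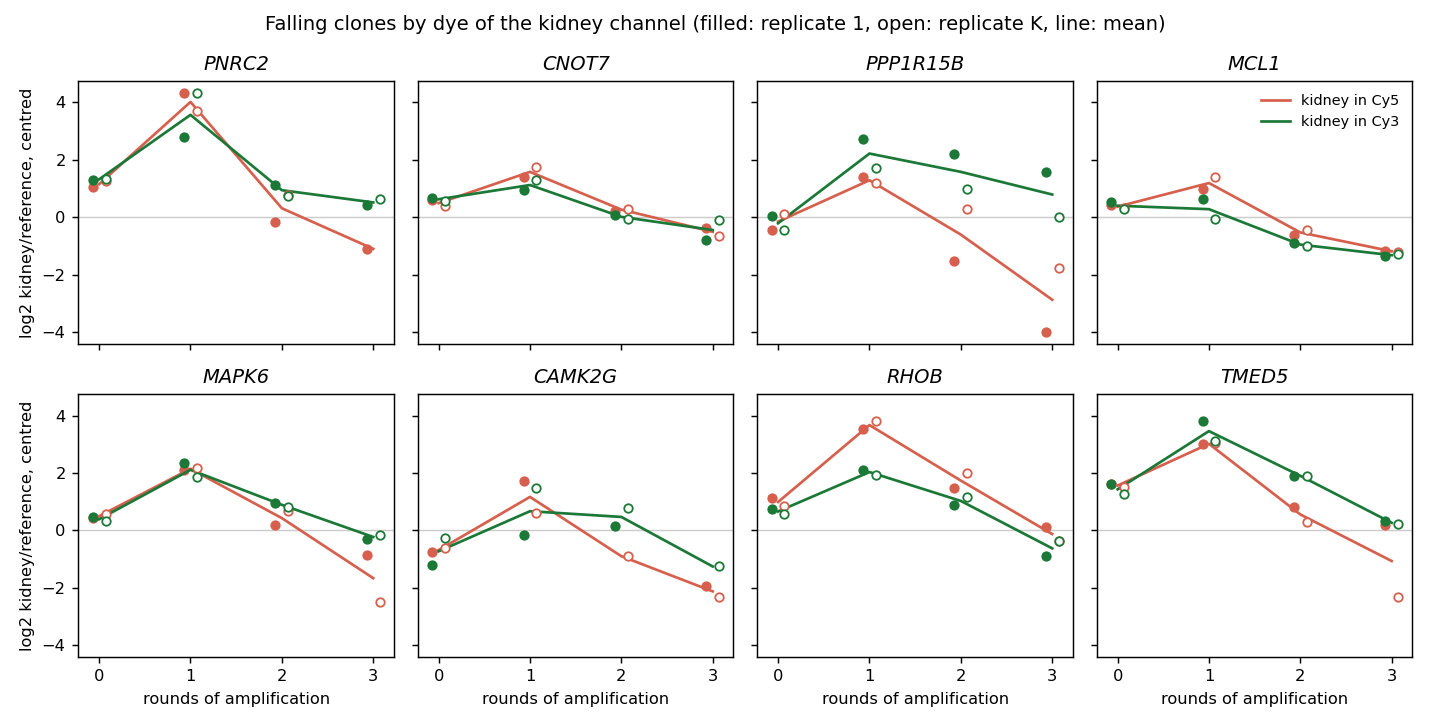
Log2 ratio of kidney over reference (vertical axis, centred) against amplification rounds (horizontal axis) for the 8 falling clones, by the dye of the kidney channel. Filled symbols are replicate 1, open symbols replicate K, lines the mean of the arrays of a dye. Both lines fall after round 1 in each panel, and the Cy5 line of PPP1R15B ends at -2.87 while its Cy3 line ends at 0.79.

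The falling clones were measured least evenly at round 3. Their median gap between duplicate spots was 0.26, 0.32, 0.42 and 0.56 at rounds 0, 1, 2 and 3, against 0.30, 0.29, 0.21 and 0.27 over all tested features. None of their 64 spot values at round 0 lacked a ratio, and 2, 2 and 10 of 64 did at rounds 1, 2 and 3. Over all listed features 6.62%, 8.10%, 5.81% and 7.71% lacked one. The median gap between dyes was 0.25, 0.72, 0.67 and 0.78 for the falling clones and 0.38, 0.76, 0.63 and 0.64 for all tested features. CNOT7 and MCL1, whose falls were the smallest, had no missing spot value, and neither did MAPK6 and TMED5. The part of these measures in the falls was not tested.

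**Figure D4:**
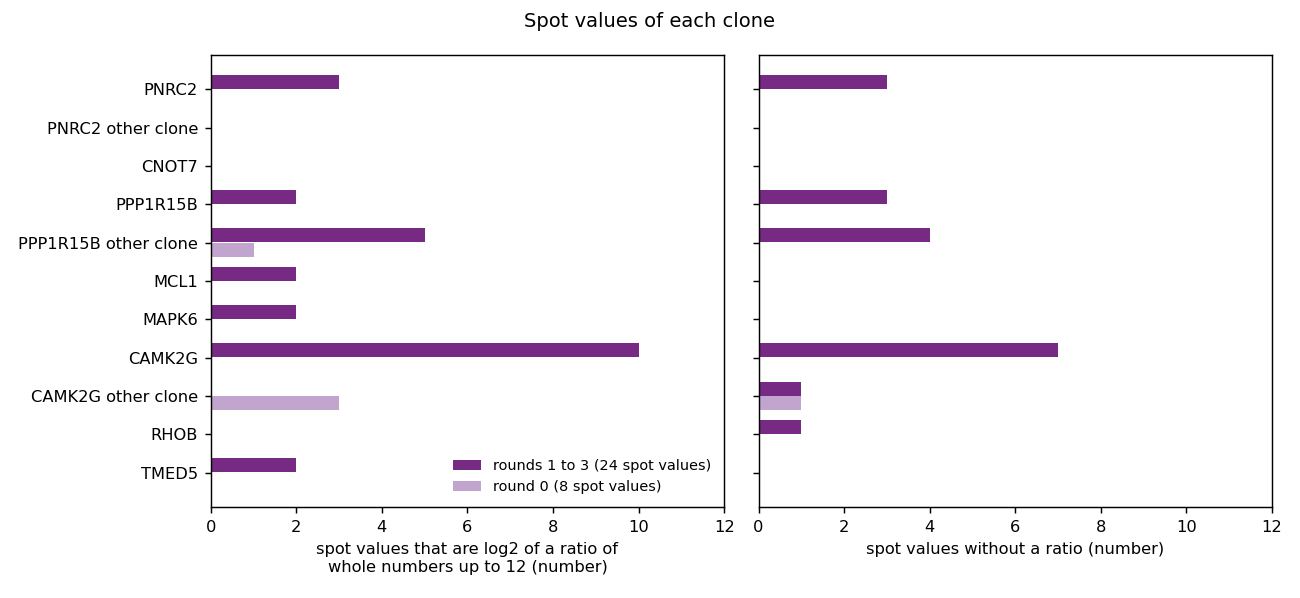
Number of spot values (horizontal axes) of each clone that are the log2 of a ratio of 2 whole numbers up to 12 (left) and that lack a ratio (right). Dark bars are the 24 spot values of rounds 1 to 3 and light bars the 8 of round 0; the CAMK2G falling clone has 10 and 7 in the amplified rounds, more than any other clone.

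Other genes of the same pathways had differences on both sides of 0. Between rounds 1 and 3, 114 features of 83 genes from 7 pathway lists had a median difference of 0.02, against 0.06 over all features, and 49.1% of them were below 0, against 46.5% of all. Over all features, 0.289% were called by limma in either direction and 21.2% had an unadjusted p under 0.05. Of the 114, 1 was called lower and 0 higher by limma, and 14 and 13 had an unadjusted p under 0.05 in those directions. The called gene was COPZ1, the zeta subunit of the COPI vesicle coat, which read 0.50 and 0.60 at round 1 and -1.95 and -1.30 at round 3, a difference of -2.18 ± 0.27 (SE, limma, adjusted p = 0.046). Its list had 0 calls in 19 of 21 other settings.

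By pathway, the medians ran from -0.16 to 0.34. Messenger RNA decay, the list of the partners of PNRC2 and CNOT7, had 17 of 25 features below 0 and a median of -0.16; its lowest feature was a clone of EDC4, a scaffold of decapping, at -1.39 (its other clone was at -0.45), and its highest PARN, a poly(A) ribonuclease, at 1.16. The integrated stress response list of PPP1R15B had 8 of 18 below 0 and a median of 0.11. In it PPP1R15A, the stress-induced counterpart of PPP1R15B also known as GADD34, had a difference of 0.87 at one clone and -0.23 at the other, and EIF2AK1, a kinase of eIF2alpha, one of -0.74. None of these features passed (limma); the 4 at the ends of the lists had adjusted p-values between 0.069 and 0.307.

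MAP kinases and their regulators had 11 of 23 features below 0 and a median of 0.18. The extremes were a clone of MAP2K2, a kinase of ERK1 and ERK2, at -1.89 (limma, adjusted p = 0.0936) and a clone of DUSP1, a phosphatase of MAP kinases, at 0.89 (adjusted p = 0.0969). The other clones of both genes did not all share these signs: those of MAP2K2 were at -0.20, 0.18 and 0.69, and those of DUSP1 at -1.05 and -0.42. Calmodulin and its kinases had 6 of 9 below 0 and a median of -0.04, between a CAMKK2 clone at -1.08 and a clone of RCAN1, an inhibitor of calcineurin, at 0.82. The second CAMKK2 clone was at 0.0033 and the second RCAN1 clone at 0.57. The BCL2 family had 1 of 4 below 0 and a median of 0.34, between BAD at -0.06 and BNIP3 at 0.50 and, in its second clone, 0.30. Early secretory traffic had 7 of 23 below 0 and a median of 0.34, and SEC24D, a coat protein of COPII vesicles, was highest at 1.59. Except COPZ1, none of the genes named for these lists passed the test.

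The falling clones resembled each other across the 8 RNAs, as their choice requires. Pearson correlations over the 28 pairs ran from 0.69 to 0.98 with a median of 0.88; the points share the reference, the arrays and the choice. The 5 features of other genes most like the mean course of the 8, among 5432 with 1 symbol, were ABCD3, HSP90AA1, QKI, APCDD1 and GOT1, with correlations of 0.992, 0.980, 0.960, 0.959 and 0.956 over the 8 RNAs. Over the other settings ABCD3 and HSP90AA1 stayed at or above 0.907, while the lowest values were 0.786 for QKI (Cy5), 0.724 for APCDD1 (first spots) and 0.606 for GOT1 (Cy3). ABCD3, a transporter of the peroxisome membrane, had mean ratios of 1.63, 3.13, 1.87 and 0.65 at rounds 0, 1, 2 and 3, with SDs of 0.13, 0.08, 0.14 and 0.02. HSP90AA1, the inducible cytosolic HSP90 chaperone, had -1.06, 0.74, -0.77 and -1.77. The other clones correlated with the mean course of the falling ones at 0.37 for PNRC2, 0.31 for CAMK2G and 0.14 for PPP1R15B. For the 5 genes with 1 clone, a change of the whole transcript and a change of the stretch that the clone reports cannot be told apart.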

How the data were processed

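Log2 ratios of 2 channels for 15 arrays were deposited by the authors in a single file. The authors' deposited values of the Cy3 array of round 1, replicate 1 include 52 numbers that no log2 ratio reaches, so that this column is called a score; its other values were used as log2 ratios. Per the labels' protocols, RNA was isolated with Trizol, amplified linearly and reverse transcribed with amino-allyl dUTP for dye coupling. The scanner, background correction and normalization are not given in these sources. The round 0 columns have 3 decimals in 100% of cells and the 12 amplified columns in 83.2% to 88.2%, so that how the columns were made and round 0 cannot be told apart.

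Values beyond 10 in size, among them the recurring code 16.61, were treated as missing. Arrays with kidney in Cy3 were turned in sign, the median of listed features was set to 0 on each array, and duplicate spots and the dye swap were averaged. Arrays of a dye swap correlated at -0.601 to -0.195 as deposited, and duplicate spots at 0.496 to 0.822. Features with a value in all 8 RNAs (5537) were fitted with limma 3.58.1 in R 4.3.3 (data.table version 1.17.8, statmod 1.5.0), a mean per round, 4 residual and 2.4 prior degrees of freedom; p-values were Benjamini-Hochberg adjusted, with a threshold of 0.05. The spread is pooled over rounds because n = 2, and the 8 RNAs, not the 16 arrays, set the precision. No exact test of 2 against 2 samples could pass the threshold. The script was tested on simulated data.

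Replicate numbers were not taken to pair samples: residuals correlated above 0.1 in 1 of 6 pairs of rounds (-0.05 to 0.17). All 8 symbols match a current gene table through their gene IDs. The members, the 7 pathway lists and the marker lists were chosen with earlier results of these data known; 1 pathway list is not reported on its own here. From each list the rule names the called feature, or where none is called the largest difference, in each direction of round 3 minus round 1, and as likeness the 5 features with the highest correlation. Alternatives varied centring, scaling, dye, spot, missing values, the samples fitted and the replicate block. Clone sequences and positions were not used here.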

Additional observations from a re-analysis of the deposited data

How the results depend on the processing

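The 8 falling clones had a round 3 minus round 1 difference below 0 in all 162 values over the alternatives in which they could be computed, from -5.12 to -1.17. Their median, -2.93, was -2.45 without centring, -4.24 with arrays scaled to 1 median absolute deviation, -3.80 in Cy5 (6 clones), -2.34 in Cy3 (7 clones), -2.34 from first spots, -3.42 from second spots (6 clones) and -3.28 with whole-number ratios missing (7 clones, an alternative chosen after seeing the data); without 1 replicate it ranged from -3.14 to -2.91. With the replicate block it was -2.93. The round 1 minus round 0 differences were above 0 in 151 of 154 values. The cause of these moves was not tested.

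The count of falling clones past the test at round 0, 5, was 1 in Cy5 (RHOB) and 2 in Cy3 (PNRC2 and TMED5). It was 1 from first spots (RHOB) and 3 from second spots (PNRC2, TMED5 and RHOB). These dye and spot settings use fewer arrays or spots. With the replicate block, which uses them all, the count was 5. PPP1R15B at round 0 was 0.50 without centring, and CNOT7 at round 1 minus round 0 was -0.22. The 16 features called at round 3 minus round 1 were 0 without centring, 526 (228 lower) with 16 arrays and a dye term, 0 in Cy3, 8 from first spots, 44 (35 lower) with values beyond 5 missing, 0 with only rounds 1 and 3 fitted, 64 (51 lower) with whole-number ratios missing, 0 to 3 without 1 replicate, and 12 with the replicate block.

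The other clones had 0 calls in every alternative in which they could be fitted, 21 for PNRC2 and 20 each for PPP1R15B and CAMK2G. Signs turned for PNRC2 (0.15) and CAMK2G (0.40) without centring, and for CAMK2G without replicate K of round 3 (-0.61 to 0.13 over the replicates left out). PPP1R15B was 0.44 without centring, 0.24 scaled, 1.03 in Cy5, 2.22 from second spots, 1.45 without the Cy3 array of round 1, replicate 1, 0.41 with whole-number ratios missing, and -1.04 to 0.64 without 1 replicate, above 0 without replicate K of round 1 (0.31) and replicate 1 of round 3 (0.64). Of 215 tested values of single clones over the alternatives (falling clones at round 0, other clones at round 3 minus round 1), 189 kept their side of the threshold, 22 lost a call and 4 gained one. Signal over background was not used, and dim spots were therefore kept.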
